A study of Mus musculus with 6 samples.

Results

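The 28 genes described here encode enzymes that make cholesterol and proteins that control how much of it is made. They were chosen by gene symbol, as a set of 8 enzymes of the mevalonate arm, 11 enzymes of the squalene and sterol arm, 7 genes of the SREBP machinery, and Stard4 and Mylip, which act in sterol transport and in the turnover of lipoprotein receptors. All 28 were found among the 40564 genes of the tables, and all 28 passed the filter on low counts, which kept 16765 genes. RNA came from mouse bronchoalveolar lavage (BALF) cells, which are rinsed from the lung's airspaces, and was sequenced in bulk. There were 2 libraries each of wild-type mice (WT), of mice labelled Cis KO, and of mice labelled Cis Stat6 KO, which the genotype field calls Double KO. CIS, the protein of Cish, restrains cytokine receptor signalling, and STAT6 carries the signal of interleukin 4 and interleukin 13. The Cis KO and Cis Stat6 KO groups share the loss of Cis, and neither a Stat6 knockout with intact Cis nor a treated group was analysed here. The labels state no treatment and the same batch date for all 6 libraries. The labels read here name no strain, age or sex and do not describe the knockout alleles. Nothing in them says whether 2 replicates are 2 animals, so p-values measure only the spread between these samples, which may be technical.

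Cells make cholesterol from acetyl-CoA. The mevalonate arm builds isoprenoid units, squalene synthase commits them to sterols, and a series of oxidations and reductions turns lanosterol into cholesterol. The pathway is controlled by SREBP transcription factors, chiefly SREBP2, the product of Srebf2. When sterols are scarce, the escort SCAP carries SREBP from the endoplasmic reticulum to the Golgi, where the proteases encoded by Mbtps1 and Mbtps2 release its active part. When sterols are plentiful, INSIG proteins hold SCAP back, and Insig1 is itself an SREBP target. Alveolar macrophages, the main resident cells of the airspaces, clear surfactant, a lipid mixture that contains cholesterol.

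SREBPs bind sterol regulatory elements and E-boxes, often beside CCAAT boxes that bind NF-Y, so the sequence upstream of the transcription start was searched for these letters. RefSeq promoter windows (GRCm38.p6) were matched for 24 of the 28 genes, in 32 windows, with none for Fdps, Fdft1, Sqle and Stard4. The letters CCAAT, on either strand, were present within 250 bases upstream of the start in 65.6% of the member windows, in 20 of the 24 genes, and in 33.8% of all 32851 windows. The E-box CACGTG was present in 15.6% of member windows (Hsd17b7, Sc5d, Dhcr7, Scap and Insig1) and in 6.02% of all windows. The sterol regulatory element CACCCCAC was present in 6.25% of member windows (Acat2 and Hmgcs1) and in 2.58% of all windows. These 3 were kept from 14 letter strings that were tried, and a match is a description of the sequence, not a measured binding site. In Cis KO against WT, genes with a sterol regulatory element or E-box match did not share a direction. Acat2, Scap and Dhcr7 had edgeR log2 fold changes of 0.27, 0.35 and -0.01, and Hsd17b7 had -0.79. The windows of Hmgcs1, Sc5d and Insig1 are shown because DESeq2 called these 3 genes lower in Cis KO (given below). They were also chosen because between them they hold all 3 kinds of match, so they do not stand for all genes with a match. Each runs 5′ to 3′ on the strand of its gene and ends at the base before the RefSeq start, with matches in capitals, where ATTGG is CCAAT read from the opposite strand.
Hmgcs1: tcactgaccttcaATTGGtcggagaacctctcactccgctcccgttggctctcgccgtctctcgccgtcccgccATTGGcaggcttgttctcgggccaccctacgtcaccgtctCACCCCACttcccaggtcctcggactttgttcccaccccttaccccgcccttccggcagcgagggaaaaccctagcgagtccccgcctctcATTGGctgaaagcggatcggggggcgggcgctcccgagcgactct
Sc5d: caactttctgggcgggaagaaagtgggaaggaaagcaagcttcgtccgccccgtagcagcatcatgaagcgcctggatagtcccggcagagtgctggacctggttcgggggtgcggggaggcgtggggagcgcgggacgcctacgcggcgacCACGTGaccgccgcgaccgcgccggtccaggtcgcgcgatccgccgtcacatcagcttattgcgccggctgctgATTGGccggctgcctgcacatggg
Insig1: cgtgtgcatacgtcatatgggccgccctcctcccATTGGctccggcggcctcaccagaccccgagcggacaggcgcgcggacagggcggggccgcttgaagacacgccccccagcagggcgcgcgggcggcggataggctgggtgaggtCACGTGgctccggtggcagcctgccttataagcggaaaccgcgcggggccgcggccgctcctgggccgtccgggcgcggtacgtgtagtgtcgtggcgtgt
The windows lie at chr13:119690101-119690350 on the plus strand for Hmgcs1, at chr9:42264301-42264550 on the minus strand for Sc5d, and at chr5:28071162-28071411 on the plus strand for Insig1. Hmgcs1 holds the sterol regulatory element and 3 CCAAT boxes. Sc5d and Insig1 each hold 1 E-box and 1 CCAAT box, and no matches overlap in these windows. In the deposited tables (mm10) the genes span chr13:119690379-119708260 for Hmgcs1, chr9:42251595-42264256 for Sc5d and chr5:28071363-28078662 for Insig1.

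The libraries held 50762354 to 65937118 counts. Cish measured 46.2 and 56.2 CPM (counts scaled to the library total with TMM factors) in the WT libraries, 4.34 and 3.52 in Cis KO, and 1.72 and 5.04 in Cis Stat6 KO. Stat6 measured 233 and 227 CPM in WT, 264 and 221 in Cis KO, and 31.6 and 25.5 in Cis Stat6 KO, so both genes were low where the labels name them as knocked out. edgeR called Stat6 lower in Cis Stat6 KO against Cis KO (adjusted p = 0.0061), while Cish in Cis KO against WT had an adjusted p of 0.0624. All 15 alveolar macrophage markers were detected in every library, with a summed level of 17200 to 43500 CPM. Cis KO replicate 2 stood apart. It had reads for 15855 genes against 19641 to 20431 in the other libraries, and haemoglobin genes took 3.29% of its counts against at most 0.0366% elsewhere. The 7 erythroid markers summed to 38700 CPM in it and to 15 to 353 CPM in the other libraries, where Slc4a1 was at 0 except in WT replicate 1. Its summed level of 10 neutrophil markers was 735 CPM against 156 to 278, and that of 12 epithelial markers 333 CPM against 82.0 to 163. The 8 B cell markers summed to 139 CPM in it, to 57.9 CPM in Cis Stat6 KO replicate 2, and to 0.636 to 5.64 CPM in the remaining libraries. Not every marker followed the sum of its list. The neutrophil marker Csf3r had 2674 counts in Cis KO replicate 2 and 2623 to 7753 elsewhere, and the epithelial marker Epcam 193 and 153 to 1678. T and NK cell markers (8 genes, 5.62 to 24 CPM) and dendritic cell and monocyte markers (9 genes, 146 to 234 CPM) did not set it apart. The part of these cells in the results below was not tested, and in bulk RNA fewer cells of a type and less RNA per cell cannot be told apart.

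Levels per gene length, as FPKM, in which counts are divided by gene length and library total, are comparable between genes. The order of the levels differed between genotypes. Mvd, which decarboxylates mevalonate diphosphate, had the highest mean in WT (32.3 FPKM) and in Cis Stat6 KO (34.9 FPKM). In Cis KO the sterol isomerase Ebp (32.98 and 40.58 FPKM) and Mvd (29.72 and 41.36 FPKM) were highest, and their libraries overlapped. The lowest mean was that of the sterol reductase Tm7sf2 in WT (1.69 FPKM) and in Cis Stat6 KO (2.13 FPKM), and that of lanosterol synthase Lss in Cis KO (1.17 FPKM). The ranges of Srebf2 and Srebf1 over the libraries overlapped (12.57 to 24.85 FPKM and 10.66 to 24.19 FPKM). Insig1 had the widest relative range of the regulators, from 2.24 to 24.39 FPKM, whereas Insig2 ran from 1.91 to 5.31 FPKM. The 19 enzymes together summed to 284 and 249 FPKM in the WT libraries, to 239 and 195 in Cis KO, and to 326 and 337 in Cis Stat6 KO. Deposited FPKM carry no TMM scaling. Divided by the TMM factor of each library, the sums were 270 and 240 in WT, 222 and 226 in Cis KO, and 309 and 361 in Cis Stat6 KO. On both scales both Cis KO libraries lay below, and both Cis Stat6 KO libraries above, the WT pair. The gap between the sums of the Cis KO libraries appeared only without the scaling. Single enzymes still differed between these libraries in TMM-scaled CPM, in both directions. In replicate 2 Idi1 was 3.2-fold and Cyp51 3.07-fold lower than in replicate 1, while Mvd was 1.76-fold and Ebp 1.56-fold higher.

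**Figure D1:**
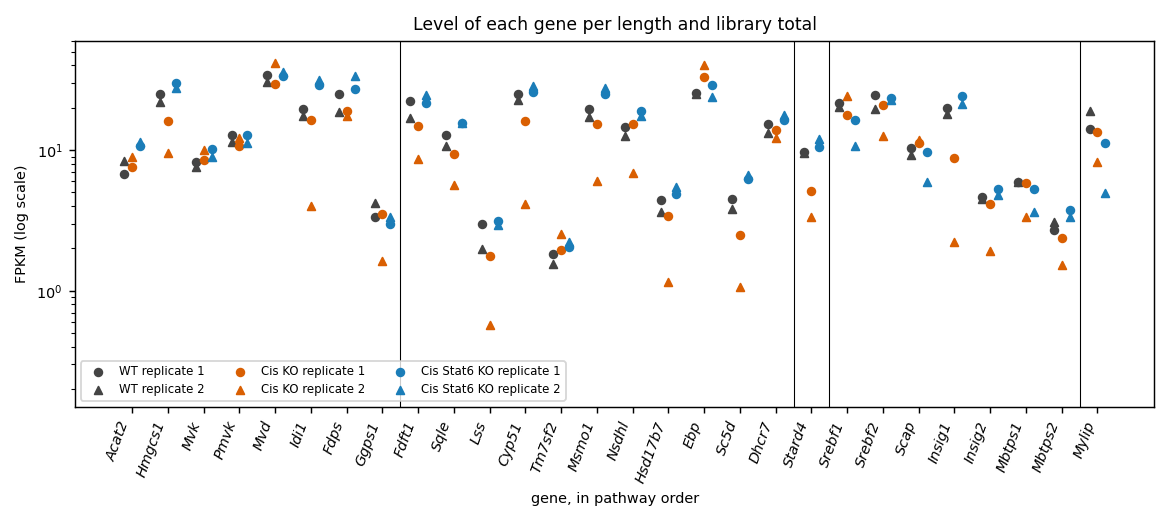
FPKM on a log axis for each of the 28 genes in pathway order (vertical lines separate the 2 enzyme arms, Stard4, the SREBP machinery and Mylip), with 1 point per library, coloured by genotype and shaped by replicate. Cis KO replicate 2 gives the lowest point for many squalene and sterol arm genes and for Insig1 at 2.24 FPKM, while Mvd and Ebp are highest in that library at 41.36 and 40.58 FPKM.

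In Cis KO against WT, most genes of the squalene and sterol arm, Stard4 and Insig1 measured lower in Cis KO, but none of the 28 genes passed the test. edgeR's quasi-likelihood test with Benjamini-Hochberg adjustment over all 16765 genes called 0 members higher and 0 lower, where it called 0.119% of all tested genes higher and 0.155% lower. At an unadjusted p under 0.05 there were 9 members (32.1%), 8 of them lower, against 11.1% of all tested genes. DESeq2, run as an alternative, called 4 members lower (Hmgcs1, Sc5d, Stard4 and Insig1) and 0 higher, against 1.84% of all tested genes called lower. limma-voom with library quality weights called 0. The median log2 fold change was -0.50 over the 28 members and -0.05 over all tested genes. In 15 of the 28 genes both Cis KO libraries lay below both WT libraries, which held for 25.9% of all tested genes, and in 3 (Tm7sf2, Ebp and Scap) both lay above, which held for 21.4%.

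The mevalonate arm showed no common direction in this comparison, with a median log2 fold change of -0.04 over its 8 genes. Hmgcs1, the synthase that forms HMG-CoA, measured 121 and 107 CPM in WT and 75.1 and 56.8 CPM in Cis KO. The groups did not overlap, the difference was 1.73-fold lower in Cis KO (log2 fold change -0.79 ± 0.20 SE), and its adjusted p in edgeR was 0.326. Idi1, the isomerase of isopentenyl diphosphate, measured 72.0 and 65.1 CPM in WT but 58.2 and 18.2 CPM in Cis KO. The Cis KO libraries of Idi1 thus differed 3.20-fold from each other, and replicate 1 lay just below the WT pair. Mvk and Pmvk, the kinases of mevalonate and phosphomevalonate, had log2 fold changes of 0.37 ± 0.25 and 0.06 ± 0.24. Acat2, which joins acetyl-CoA units, had 0.27 ± 0.27, Mvd 0.28 ± 0.29, Fdps -0.14 ± 0.25, and Ggps1, which makes the lipid for protein geranylgeranylation, -0.51 ± 0.33. Each of these 6 overlapped between the groups.

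The squalene and sterol arm had a median log2 fold change of -0.65 over its 11 genes, and 7 of them lay lower in both Cis KO libraries than in both WT libraries. Squalene synthase Fdft1 measured 96.5 and 74.0 CPM in WT and 62.7 and 45.7 in Cis KO (log2 fold change -0.65 ± 0.25). Squalene epoxidase Sqle, an oxygen-dependent control point, measured 75.4 and 64.0 CPM in WT and 53.4 and 40.4 in Cis KO (-0.57 ± 0.22). Lss, which closes the sterol rings, measured 34.1 and 22.9 CPM in WT and 19.5 and 7.92 in Cis KO (-1.05 ± 0.43). In all 3 the groups did not overlap, and the edgeR adjusted p was 0.437 for Fdft1 and Sqle and 0.439 for Lss. The lanosterol demethylase Cyp51 measured 118 and 107 CPM in WT and 72.1 and 23.5 in Cis KO, a log2 fold change of -1.23 ± 0.48. The sterol desaturase Sc5d measured 22.9 and 19.9 CPM in WT and 12.3 and 6.76 in Cis KO. Sc5d was 2.24-fold lower (log2 fold change -1.17 ± 0.32, edgeR adjusted p = 0.371). Msmo1 and Hsd17b7, which act on the methyl and keto groups of the sterol rings, had log2 fold changes of -0.73 ± 0.34 and -0.79 ± 0.40, both without overlap. Nsdhl, their partner in demethylation, overlapped between the groups (-0.24 ± 0.29), as did Dhcr7, a reductase that yields cholesterol (-0.01 ± 0.20). Ebp lay in the other direction, with 62.7 and 62.1 CPM in WT and 77.6 and 121 in Cis KO (log2 fold change 0.67 ± 0.24), and so did Tm7sf2 (0.55 ± 0.33).

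Stard4, a cytosolic carrier that moves cholesterol between membranes, had the smallest adjusted p of the 28 genes in this comparison. It measured 56.9 and 57.3 CPM in WT and 29.1 and 24.3 in Cis KO. The replicates of Stard4 lay close together in both groups, the level was 2.14-fold lower in Cis KO (log2 fold change -1.10 ± 0.22), while edgeR gave an adjusted p of 0.181 and DESeq2 one of 0.000803. Mylip, a ubiquitin ligase that targets lipoprotein receptors for degradation and is induced by LXR, measured 48.3 and 65.3 CPM in WT and 44.6 and 34.5 in Cis KO. Of the SREBP machinery, Insig1 had the lowest log2 fold change of all members. It measured 65.6 and 59.4 CPM in WT, and 27.8 and 9 in Cis KO, which is 3.39-fold lower (log2 fold change -1.76 ± 0.48). Its adjusted p was 0.367 in edgeR and 0.00788 in DESeq2, and its Cis KO libraries differed 3.09-fold. Insig2 (-0.53 ± 0.30), Mbtps1 (-0.30 ± 0.23) and Mbtps2 (-0.49 ± 0.21) also lay below WT without overlap. Srebf2 measured 189 and 151 CPM in WT and 154 and 117 in Cis KO and overlapped, and Srebf1 did too, at 129 and 122 CPM in WT and 102 and 176 in Cis KO. Scap lay above WT in both Cis KO libraries (0.35 ± 0.24).

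Without Cis KO replicate 2, the median log2 fold change of the 28 members was -0.25, and 1 gene, Insig1, was called lower (log2 fold change -1.17, edgeR adjusted p = 0.0239), among 188 genes called in all, 115 of them lower. Without Cis KO replicate 1 the median was -0.73 and 19 members were called, 15 lower and 4 higher, among 5349 genes called in all, 3241 of them lower. Each of these fits leaves a single Cis KO library, which is assumed to vary like the other groups.

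**Figure D2:**
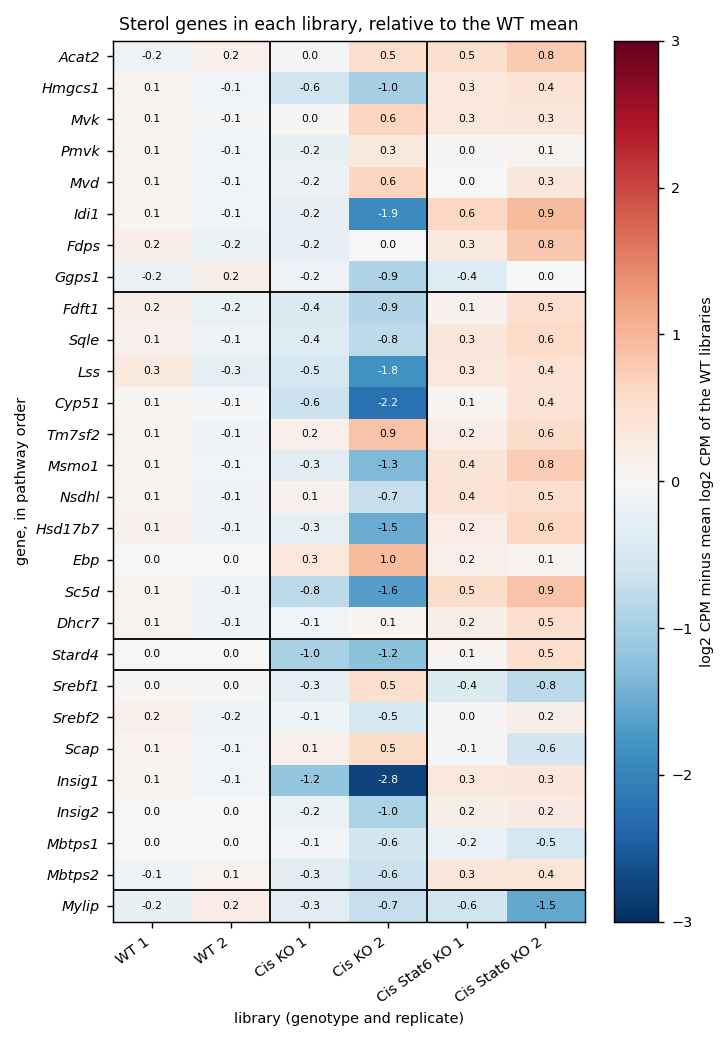
Log2 CPM of each gene in each library minus the mean log2 CPM of the WT libraries, in pathway order, with the value printed in each cell. Most of the squalene and sterol arm, Stard4 and Insig1 are lower in both Cis KO libraries, more so in replicate 2, where Insig1 reaches -2.78 against -1.16 in replicate 1.

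In Cis Stat6 KO against Cis KO, the comparison that asks what the loss of Stat6 adds where Cis is already lost, most of the sterol enzymes measured higher in Cis Stat6 KO. It shares the Cis KO libraries with the comparison above, so their levels enter both. edgeR called 0 of the 28 members higher and 0 lower, where it called 0.239% of all tested genes higher and 0.119% lower. There were 17 members at an unadjusted p under 0.05 (60.7%), 15 of them higher, against 18.3% of all tested genes. DESeq2 called 12 members higher and 0 lower, against 4.61% of all tested genes called higher. Those 12 were Hmgcs1, Idi1, Fdft1, Sqle, Lss, Cyp51, Msmo1, Hsd17b7, Sc5d, Stard4, Insig1 and Mbtps2. limma-voom with library quality weights called 0. The median log2 fold change was 0.71 over the members and 0.05 over all tested genes. Both Cis Stat6 KO libraries lay above both Cis KO libraries in 17 of the 28 genes, against 27.9% of all tested genes, and below in 3 (Ebp, Srebf1 and Scap), against 22.5%.

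The median log2 fold change was 0.33 over the mevalonate arm and 1.03 over the squalene and sterol arm, where 9 of 11 genes lay higher without overlap. Sc5d measured 31.3 and 38.8 CPM in Cis Stat6 KO, above the 12.3 and 6.76 CPM of Cis KO. That was 3.66-fold (log2 fold change 1.87 ± 0.33, adjusted p = 0.0905 in edgeR and 1.46e-05 in DESeq2). Hmgcs1 measured 142 and 152 CPM in Cis Stat6 KO, which was 2.23-fold the Cis KO level (1.15 ± 0.20, edgeR adjusted p = 0.0905). Idi1 reached 105 and 132 CPM, a log2 fold change of 1.63 ± 0.50. Sqle (88.4 and 103 CPM), Fdft1 (92.2 and 121 CPM), Cyp51 (117 and 150 CPM) and Lss (35 and 37.8 CPM) each lay above both Cis KO libraries, with log2 fold changes of 1.03, 0.97, 1.48 and 1.41. Msmo1 (157 and 203 CPM) and Hsd17b7 (25.4 and 33.6 CPM) did too, with 1.32 and 1.22. Ebp lay in the other direction here too, at 69.6 and 66.4 CPM in Cis Stat6 KO, below both Cis KO libraries (-0.55 ± 0.24), and Tm7sf2 overlapped (-0.15 ± 0.33). In the mevalonate arm Fdps also lay above both Cis KO libraries (0.71 ± 0.25). Acat2, Mvk, Pmvk, Mvd and Ggps1 overlapped, with log2 fold changes of 0.35, -0.03, 0.01, -0.10 and 0.31.

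Stard4 measured 60.5 and 80.8 CPM in Cis Stat6 KO, 2.65-fold the Cis KO level (log2 fold change 1.40 ± 0.22), and the adjusted p was 0.0725 by edgeR and 1.53e-06 by DESeq2. Insig1 measured 77.6 and 79.3 CPM, 4.25-fold the Cis KO level and the highest fold of the 28 genes (2.09 ± 0.49, edgeR adjusted p = 0.145). The Cis Stat6 KO replicates of Insig1 differed by 1.02-fold, and those of Cis KO by 3.09-fold. The 2 SREBP genes lay in opposite directions. Srebf2 measured 174 and 194 CPM in Cis Stat6 KO, above both Cis KO libraries (0.44 ± 0.21), whereas Srebf1 measured 94.5 and 71.8 CPM, below both (-0.74 ± 0.29). Scap measured 74.5 and 52.8 CPM, also below both (-0.64 ± 0.24). Mbtps2 (0.83 ± 0.21) and Insig2 (0.74 ± 0.30) lay above, and Mbtps1 (-0.06 ± 0.23) and Mylip (-0.48 ± 0.35) overlapped with Cis KO. Without Cis KO replicate 2 the median was 0.54 and 5 members were called higher, namely Hmgcs1, Idi1, Sc5d, Stard4 and Insig1, among 495 genes called in all, 345 of them higher. Without Cis KO replicate 1 the median was 0.88 and 18 were called, 15 higher and 3 lower, among 5999 genes called in all, 3578 of them higher.

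**Figure D3:**
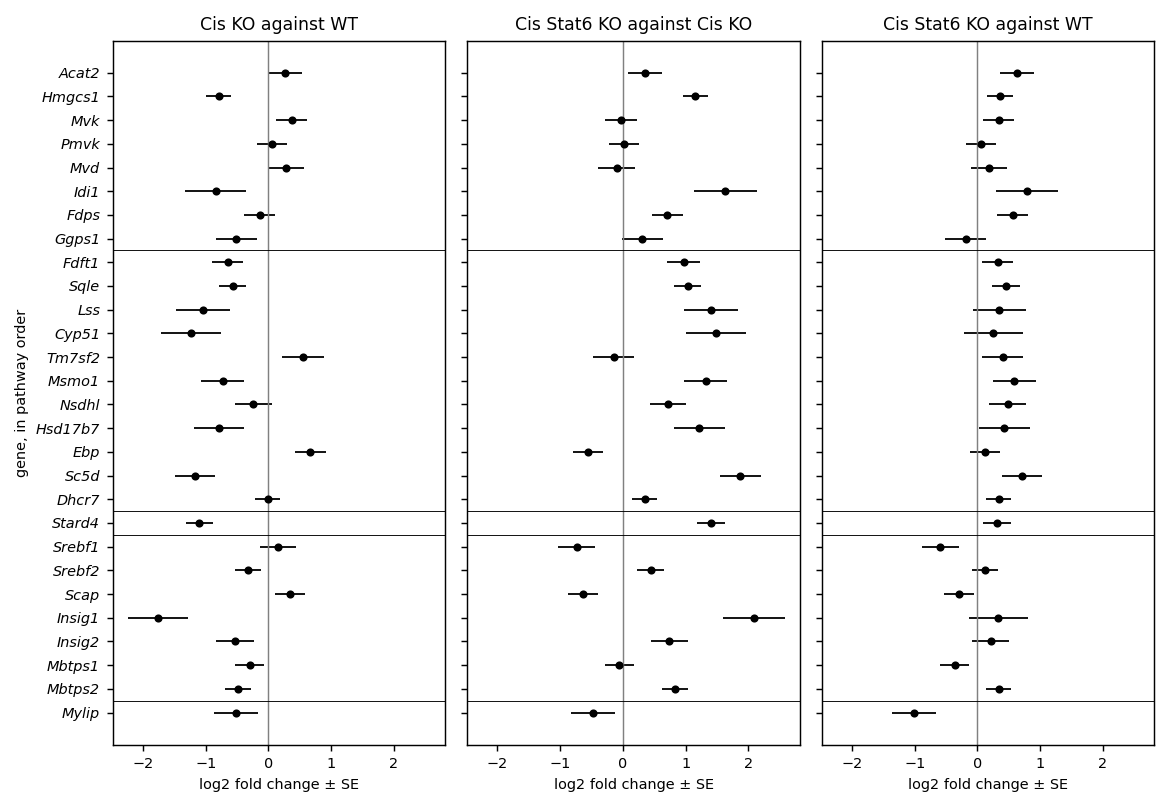
Log2 fold change ± SE from edgeR for the 28 genes in pathway order, in 3 panels, 1 for each comparison of genotypes. The first 2 panels share the Cis KO libraries. In the squalene and sterol arm the points lie mostly left of 0 in the first panel, at a median of -0.65, and right of 0 in the second, at 1.03, while in the third they lie between 0.12 and 0.71.

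In Cis Stat6 KO against WT, which sets the loss of both genes against their presence, the sterol enzymes measured slightly higher and Mylip lower in Cis Stat6 KO. edgeR called 0 of the 28 members in either direction, where it called 0.0656% of all tested genes higher and 0.0656% lower. Only Mylip was at an unadjusted p under 0.05 (3.57% of the members), against 5.36% of all tested genes, which is near the background. DESeq2 called 0 members, against 1.89% of all tested genes called in either direction, and so did limma-voom with library quality weights. The median log2 fold change was 0.33 over the members and -0.00 over all tested genes, and 0.20 over the members without Cis Stat6 KO replicate 2. Both Cis Stat6 KO libraries lay above both WT libraries in 18 of the 28 genes, against 23.3% of all tested genes, and below in 3 (Srebf1, Mbtps1 and Mylip), against 23.5%. All 11 genes of the squalene and sterol arm had a log2 fold change above 0, from 0.12 for Ebp to 0.71 for Sc5d. Idi1, at 0.79 ± 0.49, and Acat2, at 0.63 ± 0.27, were the highest of the mevalonate arm. Acat2 measured 28.2 and 34.7 CPM in Cis Stat6 KO, above 18.1 and 22.7 CPM in WT. Stard4 (0.31 ± 0.22), Insig1 (0.33 ± 0.47) and Srebf2 (0.12 ± 0.21) had log2 fold changes near the size of their errors or below it. Mylip measured 37.3 and 19.3 CPM in Cis Stat6 KO, 2.01-fold below WT (log2 fold change -1.01 ± 0.35), and edgeR gave it an unadjusted p of 0.0258 and an adjusted one of 0.791. Srebf1 lay below WT too (-0.59 ± 0.29). Cell type markers also differed between these groups. The alveolar macrophage markers summed to 34500 and 43500 CPM in Cis Stat6 KO and to 17600 and 26200 CPM in WT, the highest sums of the 6 libraries being those of Cis Stat6 KO. Chil3 had the most counts of the 15 markers in every library. It measured 13277.44 and 15961.46 FPKM in Cis Stat6 KO against 5094.06 and 8601.32 FPKM in WT. Of the 15, 10 had a log2 fold change above 0 and 5 below, at a median of 0.21, so the sum does not stand for each marker. Of 12 epithelial markers, 9 lay lower in both Cis Stat6 KO libraries than in WT, at a median log2 fold change of -1.38. The 10 neutrophil markers summed to 245 and 278 CPM against 228 and 220 CPM. Of the 9 tested, 6 had a log2 fold change above 0 and 3 below. S100a9 and Csf3r, named after their values were seen, lay in opposite directions. S100a9 measured 27.7 and 72.3 CPM against 1.35 and 1.24 CPM, and Csf3r 17.29 and 12.5 FPKM against 30.36 and 29.35 FPKM. edgeR called 0 of the markers of these 3 lists, with 4 of each at an unadjusted p under 0.05, against 5.36% of all tested genes. For the 15 alveolar macrophage markers (26.7%) all 4 were higher. For the 12 epithelial ones (33.3%) 1 was higher and 3 lower, and for the 9 neutrophil ones tested (44.4%) 3 were higher and 1 lower. DESeq2 called 2 of each, both higher in the macrophage list and 1 in each direction in the other 2. The part of these markers in the values of the sterol genes was not tested.

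Read across the 3 genotypes, 13 of the 28 genes were lower in both Cis KO libraries than in all 4 other libraries, which held for 16.8% of all tested genes. In 11 of them (Hmgcs1, Idi1, Sqle, Lss, Msmo1, Hsd17b7, Sc5d, Stard4, Insig1, Insig2 and Mbtps2) the full order was Cis KO below WT below Cis Stat6 KO without overlap, which held for 6.25% of all tested genes. The other 2 were Fdft1 and Cyp51. All of the 11 but Sqle, Lss and Insig1 were in the tertile of lowest GC content, described below. Over all tested genes that tertile had a median log2 fold change of -0.34 in Cis KO against WT. The order was not kept by all 11 after the GC content correction given below. Mbtps2 then overlapped between Cis KO and WT, and Hsd17b7 and Stard4 between Cis Stat6 KO and WT. Relative to the WT mean, the median member lay at -0.24 in Cis KO replicate 1 and at -0.70 in replicate 2 on the log2 scale, and at 0.20 and 0.42 in the Cis Stat6 KO libraries. The 2 libraries of a genotype differed by a median absolute log2 of 0.62 over the members in Cis KO, against 0.19 in WT and 0.31 in Cis Stat6 KO. Over all tested genes these gaps were 0.65, 0.22 and 0.29, so in absolute size the members varied between replicates about as much as other genes did. With the sign kept, the members shifted more to one side. Replicate 2 minus replicate 1 had a median of -0.40 over the members in Cis KO, -0.15 in WT and 0.19 in Cis Stat6 KO. Over all tested genes it was -0.10, 0.0 and -0.01.

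The difference between the Cis KO replicates moved with the GC content of the transcripts. Over all tested genes, replicate 2 minus replicate 1 had a median log2 of -0.52 in the tertile of lowest GC (up to 46.5%), of -0.14 in the middle tertile and of 0.29 in the highest (from 52.8%). The members followed the same order, at -0.82 over 11 genes, -0.40 over 9 and 0.55 over 8. In Cis KO against WT the medians of all tested genes were -0.34, -0.07 and 0.27 over these tertiles, and those of the members were -0.79, -0.52 and 0.22. Hmgcs1, Idi1, Cyp51, Msmo1, Hsd17b7, Sc5d and Stard4 were among the 11 members of low GC, together with Ggps1, Nsdhl, Insig2 and Mbtps2. The 9 of the middle tertile were Acat2, Fdft1, Sqle, Lss, Ebp, Dhcr7, Insig1, Mbtps1 and Mylip, and the 8 of the highest were Mvk, Pmvk, Mvd, Fdps, Tm7sf2, Srebf1, Srebf2 and Scap. After a correction for GC content, added after the data were seen, the median of the members was -0.34 in Cis KO against WT, 0.49 in Cis Stat6 KO against Cis KO and 0.30 in Cis Stat6 KO against WT, and 0 members were called in each. Insig1 kept a log2 fold change of -1.64 against WT, Lss of -1.10 and Cyp51 of -1.02. Hmgcs1 moved from -0.79 to -0.37, Stard4 from -1.10 to -0.70 and Sc5d from -1.17 to -0.79. Mbtps2 moved from -0.49 to 0.09 against WT, and from 0.83 to 0.05 in Cis Stat6 KO against Cis KO. With this correction 18 members lay lower in both Cis KO libraries than in WT, against 22% of all tested genes, and 1 (Ebp) lay higher, against 23.4%. Pmvk, Fdps, Srebf1 and Srebf2, which overlapped without the correction, were among the 18, and Mbtps2 no longer was. The median of the members in this comparison moved from -0.50 to -0.34, so the longer list did not come with larger differences.

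**Figure D4:**
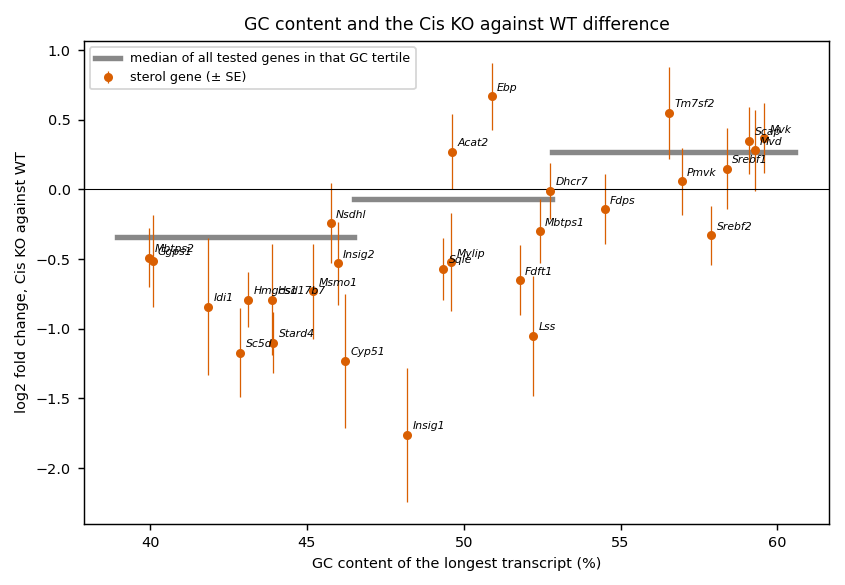
Log2 fold change ± SE in Cis KO against WT of the 28 genes (points, named) against the GC content of the longest transcript in percent, with the median of all tested genes in each GC tertile as a grey bar. The bars step from -0.34 to -0.07 and 0.27 with rising GC, and the 11 members of the lowest tertile all lie below 0, each of them except Nsdhl below the bar.

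Other lipid genes were read from lists set beside the members. Of 11 tested genes of the sterol pathway outside the 28, edgeR called 1 lower in Cis KO against WT and 1 higher in Cis Stat6 KO against Cis KO. Of all tested genes it called 0.155% and 0.239% in these directions. The medians of the 11 genes were -0.10 and 0.30. Of 17 tested genes of fatty acid synthesis, which SREBP1c also controls, edgeR called 0 in any of the 3 comparisons. At its unadjusted p under 0.05 there were 5 lower, 7 higher and 2 higher in turn (29.4%, 41.2% and 11.8%). Of all tested genes, 11.1%, 18.3% and 5.36% were under it in either direction. DESeq2 called 2 lower, 5 higher and 1 higher, where it called 538, 1539 and 317 of all 16765 genes. The medians of the 17 genes were -0.26, 0.71 and -0.02. Scd2, a desaturase that makes monounsaturated fatty acids, measured 162 and 151 CPM in WT, 77.3 and 52.4 in Cis KO, and 116 and 121 in Cis Stat6 KO, with a smallest edgeR adjusted p of 0.128. Fads2, a desaturase of polyunsaturated fatty acids, measured 6.64 and 3.78 CPM in WT, 5.06 and 4.02 in Cis KO, and 13 and 15.1 in Cis Stat6 KO. Scd2 thus lay between its WT and Cis KO levels in Cis Stat6 KO, and Fads2 lay above both.

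Genes of sterol export and LXR, the receptor that senses oxidised sterols, had medians of 0.33, -0.61 and -0.43 in the 3 comparisons. edgeR called 0 of 11, with 2, 8 and 4 at an unadjusted p under 0.05 (18.2%, 72.7% and 36.4%), against 11.1%, 18.3% and 5.36% of all tested genes. Of the 2, 1 was lower, of the 8, 6 were lower, and all 4 were lower. DESeq2 called 0, 3 lower and 3 lower, where it called 538, 1539 and 317 of all 16765 genes. Arl4c, an LXR target, measured 26.3 and 28.1 CPM in WT, 12.7 and 16.9 in Cis KO, and 9.61 and 5.98 in Cis Stat6 KO. Apoc1, an apolipoprotein, measured 0.483 and 0.351 CPM in WT and 1.11 and 1.87 in Cis KO, and had 0 counts in both Cis Stat6 KO libraries. Genes of sterol ester storage and lysosomal release had medians of -0.15, 0.03 and 0.15. edgeR called 0 of 13, with 6, 5 and 1 at an unadjusted p under 0.05 (46.2%, 38.5% and 7.69%). The 6 were 2 higher and 4 lower, the 5 were 4 higher and 1 lower, and the 1 was higher. DESeq2 called 1 lower, then 3 higher and 1 lower, then 1 higher. Lipa, the lysosomal lipase that frees cholesterol from its esters, measured 1230 and 1140 CPM in WT, 717 and 529 in Cis KO, and 1410 and 1580 in Cis Stat6 KO, with a log2 fold change of 1.26 ± 0.22 and an edgeR adjusted p of 0.0905 in Cis Stat6 KO against Cis KO. Osbpl8, a lipid exchanger at membrane contacts, measured 95.4 and 92.5 CPM in WT, 62.7 and 31.3 in Cis KO, and 126 and 140 in Cis Stat6 KO. Lipa and Osbpl8 had the order of the 11 members named above, with Cis KO lowest and Cis Stat6 KO highest, which held for 6.25% of all tested genes. Both were named for a small adjusted p, which favours genes whose groups lie apart, so they do not stand for their list. In Cis Stat6 KO against Cis KO, 8 of its 13 genes had a log2 fold change above 0 and 5 below.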

How the data were processed

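Raw counts per gene were deposited by the authors, not normalised per the file headers, for 6 bulk RNA libraries. The authors also deposited FPKM values, which divide counts by gene length and library total. Build mm10 is named in the submitters' processing notes. The aligner, counter and strandedness were not given in the sources used here, which leaves counts of overlapping genes uncertain. Counts were tested in R 4.3.3 with edgeR 4.0.16 (TMM, filterByExpr, quasi-likelihood F test, two-sided, genotype as the only factor, 6 libraries in 1 fit, 3 residual degrees of freedom), and called at a Benjamini-Hochberg adjusted p under 0.05. SEs are the log2 fold change over the square root of F. The common biological coefficient of variation was 50.3%. FPKM served levels between genes and 1 sum over enzymes, with no test. Alternatives used DESeq2 1.42.0, limma 3.58.1, other scalings and filters, a replicate block and each library left out.

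The members and lists were chosen with earlier results of these data known. All 28 members were named, with the called genes of each other list, or else the 2 of smallest adjusted p, and Cish and Stat6. Some genes that this rule names are not reported here.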

Additional observations from a re-analysis of the deposited data

How the results depend on the processing

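With 2 libraries a genotype and 3 residual degrees of freedom, the number of calls moved with the settings. As reported, 46 genes were called in Cis KO against WT, 60 in Cis Stat6 KO against Cis KO and 22 in Cis Stat6 KO against WT, and 0 members in each. DESeq2 called 538, 1539 and 317 genes in that order, with 4, 12 and 0 members. Without the filter on low counts edgeR called 1021, 1840 and 385 genes, with 7, 12 and 1 members, the last being Mylip. Only the groups compared gave 6, 5 and 277 genes. limma-voom with quality weights gave 23 genes in Cis Stat6 KO against Cis KO and 470 in Cis Stat6 KO against WT. The GC content correction gave 43 genes in Cis Stat6 KO against WT, and left 1 member (Ebp) higher without overlap in Cis KO against WT, against 23.4% of all tested genes. The cause of these shifts was not tested.

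With the replicate number as a block, 24, 28 and 12 genes were called, and 0 members in each. The labels do not say what the numbers share, so the numbers were not taken to pair the samples. Same-numbered libraries did not deviate together over the tested genes (r = -0.032, -0.065 and 0.013). With 2 libraries a genotype, these correlations cannot show whether the numbers mark a shared origin.

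With each library left out in turn, the genes called ran from 3 to 5349 in Cis KO against WT, from 4 to 5999 in Cis Stat6 KO against Cis KO, and from 0 to 350 in Cis Stat6 KO against WT. The members called ran from 0 to 19 and from 0 to 18 in the first 2 comparisons, and the upper ends came without Cis KO replicate 1. In the third, 0 genes were called without Cis Stat6 KO replicate 1 or replicate 2. The median of the members ran from -0.73 to -0.25 in Cis KO against WT, and from 0.20 to 0.40 in Cis Stat6 KO against WT.

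Log2 fold changes that crossed 0 lay between -0.49 and 0.37 as reported. In Cis KO against WT, Dhcr7 was 0.0035 with DESeq2 and with RLE size factors, and 0.01 with a minimum of 1 CPM in 2 libraries. With the GC content correction Mvk was -0.04, Pmvk -0.23, Mvd -0.13, Nsdhl 0.04, Srebf1 -0.22, Scap -0.02 and Mbtps2 0.09. With a library left out, Acat2 ran from -0.03 to 0.51, Pmvk from -0.22 to 0.28, Mvd from -0.18 to 0.62, Fdps from -0.34 to 0.07, Nsdhl from -0.72 to 0.12, Dhcr7 from -0.12 to 0.09 and Srebf1 from -0.29 to 0.47. In Cis Stat6 KO against Cis KO, Pmvk was -0.02 with DESeq2, with RLE size factors and with the minimum of 1 CPM, and -0.0067 with only the groups compared, and Mvk was 0.02 with limma-voom. With the GC content correction Mvk was 0.49, Mvd 0.43, Ggps1 -0.40, Tm7sf2 0.26 and Mbtps1 0.04. With a library left out, Mvk ran from -0.29 to 0.29, Pmvk from -0.22 to 0.28, Mvd from -0.45 to 0.35, Ggps1 from -0.03 to 0.77, Tm7sf2 from -0.45 to 0.24 and Mbtps1 from -0.28 to 0.20. In Cis Stat6 KO against WT, Pmvk ran from -0.0089 to 0.13, Ggps1 from -0.40 to 0.0009 and Srebf2 from -0.03 to 0.28.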
